A study of Mus musculus with 830 samples.

Results

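Proliferation was followed through 42 genes of the S, G2 and M phases of the cell cycle in single endoderm and gut cells of mouse embryos. The genes were taken as a fixed list by symbol, 20 of S phase and 22 of G2 and M phase (G2/M), and all 42 were found among the 26313 genes of the read count table. The 830 cells came from embryos of 15 to 27 somites (strain C57BL/6XC3H) and were sequenced with Smart-seq3xpress, which reads full-length transcripts of cells sorted into plates, after staining for EpCAM, an epithelial surface protein, and removal of DAPI-stained dead cells by flow cytometry. Ngn3Cre cells (333 cells, genotype Ngn3-Cre; Ai6) carried a Cre recombinase under the control of Neurog3 (also called Ngn3) with the Ai6 reporter, which stays on in the descendants of a cell once Cre has acted. HM cells (171 cells, genotype Ngn3-GFP/GFP) carried GFP at both Neurog3 alleles, and HZ cells (326 cells, genotype Ngn3-GFP/+) carried GFP at 1 allele. Both GFP alleles report the Neurog3 promoter and not a single cell type. The sources used here do not say whether cells were also sorted on the reporter, and the part of such a gate in the mix of cells was not tested. The labels name no embryo, and counts were therefore summed over the cells of a genotype and stage. The 11 such pools with at least 10 cells were tested, the other 3 pools held 3 to 5 cells, and p-values measure the spread between these pools.

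Neurog3 is a transcription factor whose short pulse commits pancreatic and gut progenitors to the endocrine fate. In the pancreas, Neurog3-positive precursors are known to divide little, and they pass through a stage marked by the transcription factor Fev before hormones such as glucagon (Gcg) are made. S phase genes license and copy DNA and are switched on by E2F factors at the end of G1. G2/M genes build the spindle, condense and separate chromosomes and trigger cyclin degradation. Their promoters are bound by the DREAM complex in resting cells and by MuvB with B-Myb and FoxM1 in cycling cells, through a CHR element that often stands beside CCAAT boxes bound by NF-Y.

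The promoters show these elements by letter. RefSeq promoters (GRCm38.p6, 250 bases before to 50 bases after the start site) were matched for 35 of the 42 genes, 17 of S phase and 18 of G2/M. The genes without an entry were Mcm4, Ccne2, Gins2, Ccna2, Aurkb, Kif20a and Tpx2. Searched on both strands were TTTGAA for the CHR, CCAAT for the CCAAT box, and TTTCCCGC, TTTCGCGC, TTTGCCGC and TTTGGCGC for E2F, and matches could overlap. The CHR letters stood in 13 of 18 G2/M promoters (72.2%) and 1 of 17 S phase promoters (Mcm2, 5.88%), while 17.9% of all 32851 promoters of the table held them. CCAAT stood in 16 of 18 G2/M promoters (88.9%), 11 of 17 S phase promoters (64.7%) and 37.4% of all promoters. The E2F letters stood in 1 of 18 G2/M promoters (Cdk1, 5.56%), 8 of 17 S phase promoters (47.1%) and 2.26% of all promoters. For Mcm7 and Uhrf1, with 2 promoters each, a match in either was counted. A match is a description of the letters and not of a bound site. Shown, with all matches in capitals, are 4 G2/M genes and 2 S phase genes that are among the clearest in the comparisons that follow: Top2a (chr11:99024140-99024439 on the minus strand), Plk1 (chr7:122159185-122159484 on the plus strand), Ube2c (chr2:164769679-164769978 on the plus strand), Cdk1 (chr10:69352863-69353162 on the minus strand), Mcm5 (chr8:75109259-75109558 on the plus strand) and Mcm6 (chr1:128359656-128359955 on the minus strand). Each is written 5′ to 3′ in the direction of its gene.
Top2a: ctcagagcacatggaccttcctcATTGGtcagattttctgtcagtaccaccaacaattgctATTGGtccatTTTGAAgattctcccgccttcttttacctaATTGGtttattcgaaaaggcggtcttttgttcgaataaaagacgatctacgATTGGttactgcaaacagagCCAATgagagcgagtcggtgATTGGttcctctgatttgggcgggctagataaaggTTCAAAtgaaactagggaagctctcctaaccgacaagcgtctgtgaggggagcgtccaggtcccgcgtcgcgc
Plk1: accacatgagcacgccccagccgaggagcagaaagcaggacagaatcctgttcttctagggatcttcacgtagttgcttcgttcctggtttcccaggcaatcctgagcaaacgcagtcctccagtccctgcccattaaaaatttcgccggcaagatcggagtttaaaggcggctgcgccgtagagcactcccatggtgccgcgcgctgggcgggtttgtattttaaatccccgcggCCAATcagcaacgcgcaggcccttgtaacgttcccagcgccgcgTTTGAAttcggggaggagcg
Ube2c: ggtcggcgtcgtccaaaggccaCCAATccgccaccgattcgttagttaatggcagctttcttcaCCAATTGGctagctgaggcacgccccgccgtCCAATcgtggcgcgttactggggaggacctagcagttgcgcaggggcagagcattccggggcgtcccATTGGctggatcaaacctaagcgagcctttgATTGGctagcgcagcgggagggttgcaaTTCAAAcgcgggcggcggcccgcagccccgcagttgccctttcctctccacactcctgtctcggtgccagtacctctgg
Cdk1: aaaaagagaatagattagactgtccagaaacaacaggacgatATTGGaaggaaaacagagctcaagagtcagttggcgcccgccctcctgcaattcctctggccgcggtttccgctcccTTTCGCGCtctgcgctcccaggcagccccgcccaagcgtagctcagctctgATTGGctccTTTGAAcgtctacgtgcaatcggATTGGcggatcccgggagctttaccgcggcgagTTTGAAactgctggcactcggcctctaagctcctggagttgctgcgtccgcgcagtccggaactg
Mcm5: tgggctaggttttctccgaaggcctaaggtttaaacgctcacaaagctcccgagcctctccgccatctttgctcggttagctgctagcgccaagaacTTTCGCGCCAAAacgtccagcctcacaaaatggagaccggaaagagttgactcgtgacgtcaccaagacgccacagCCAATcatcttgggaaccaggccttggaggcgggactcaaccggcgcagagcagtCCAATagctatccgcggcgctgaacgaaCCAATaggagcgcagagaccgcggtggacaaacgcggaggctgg
Mcm6: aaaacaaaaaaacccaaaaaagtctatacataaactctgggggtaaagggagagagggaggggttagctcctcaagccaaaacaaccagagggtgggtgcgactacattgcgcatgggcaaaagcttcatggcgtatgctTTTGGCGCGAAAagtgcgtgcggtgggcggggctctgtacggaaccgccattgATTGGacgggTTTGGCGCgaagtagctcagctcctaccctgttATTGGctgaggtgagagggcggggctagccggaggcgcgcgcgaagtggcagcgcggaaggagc
Top2a held 2 CHR and 6 CCAAT matches, Ube2c 1 CHR and 6 CCAAT matches, and Plk1 1 of each. Cdk1 held all 3 kinds, with 2 CHR, 3 CCAAT and 1 E2F match. Mcm5 (3 CCAAT, 2 E2F) and Mcm6 (2 CCAAT, 3 E2F) held no CHR letters.

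Depth ran from 1400 to 2525083 reads per cell (median 452597), and the tested pools held 8299225 to 70763553 reads. The targeted gene, Neurog3, was low where the labels give GFP at both alleles: its unscaled level was 9.40, 8.41, 5.95 and 11.5 CPM (the gene's reads scaled to a common library size) in HM pools of 15, 18, 21 and 24 somites, against 129.6, 133, 90.0 and 81.1 CPM in HZ pools of 18, 21, 24 and 27 somites. No HM cell reached 100 CPM of Neurog3. Epithelial markers summed to 676 to 3995 CPM in every tested pool and blood markers to at most 1.13 CPM. Neural or neural crest markers summed to 1303 CPM in the Ngn3Cre pool of 27 somites, above its epithelial sum of 864 CPM. They summed to 0.812 to 320 CPM in the other tested pools. The HZ pool of 27 somites had the lowest epithelial sum (676 CPM) and the highest sum of mesenchyme markers (365 CPM). The pools differ in their mix of cells: cells under 10 CPM of Neurog3 and Fev and under 100 CPM of Gcg made up 10.2% of Ngn3Cre cells, 57.3% of HM cells and 40.5% of HZ cells. In summed pools, fewer cycling cells and less RNA of a gene per cell cannot be told apart, so levels per cell are given first.

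Within single cells the G2/M genes tended to be detected together, so that most cells had either few of them or most of them. Cells were thinned to 100000 reads each (713 of 830 cells were deep enough), and the number of the 22 G2/M genes with at least 1 read was counted in each. The median cell had 4 of the 22 genes in Ngn3Cre, 15 in HM and 7 in HZ. At most 5 of them were found in 66.8% of Ngn3Cre cells, 12.6% of HM cells and 41.6% of HZ cells. At least 20 were found in 6.92% of Ngn3Cre cells, 37.1% of HM cells and 21.0% of HZ cells. HM cells thus had at least 20 of the genes most often and Ngn3Cre cells at most 5 of them most often among the 3 genotypes. Across the 713 cells the median Spearman rho was 0.63 over the 231 pairs of G2/M genes, 0.38 over the 190 pairs of S phase genes and 0.29 over the 440 pairs between the lists, given as a description of cells thinned to 1 depth. Mki67, the nuclear proliferation antigen, went most closely with Cdk1, the kinase that drives entry into mitosis (rho 0.73). Rrm2, the small subunit of the ribonucleotide reductase that supplies DNA precursors, is listed under S phase but also went most closely with Cdk1 (rho 0.68).

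**Figure D1:**
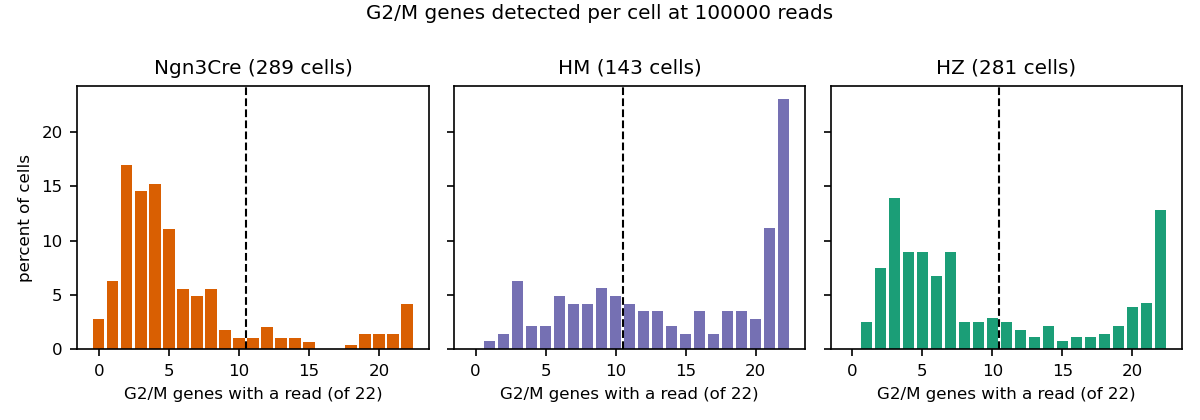
Share of cells (%) of each genotype by the number of the 22 G2/M genes with a read after thinning to 100000 reads, with a dashed line at 11 genes. Ngn3Cre cells gather at 5 genes or fewer (66.8%), and 37.1% of HM cells have 20 or more.

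A cell was called G2/M-rich with a read of at least 11 of the 22 G2/M genes, and S-rich with a read of at least 10 of the 20 S phase genes. These calls describe transcripts and were not tied to DNA content. G2/M-rich were 42 of 289 cells (14.5%, exact binomial 95% interval 10.7 to 19.1%) in Ngn3Cre, 91 of 143 cells (63.6%, 55.2 to 71.5%) in HM and 98 of 281 cells (34.9%, 29.3 to 40.8%) in HZ, where intervals cover counting error only. By stage, the share was 10.1, 21.3 and 6.35% in Ngn3Cre pools of 21, 24 and 27 somites, 60.0, 46.7, 86.1 and 58.9% in HM pools of 15, 18, 21 and 24 somites, and 54.2, 29.5, 28.2 and 42.3% in HZ pools of 18, 21, 24 and 27 somites. Each Ngn3Cre pool lay below every HZ pool, whereas the HM pool of 18 somites lay within the HZ range and the other HM pools lay above it. S-rich were 185 of 289 cells (64.0%, 58.2 to 69.6%) in Ngn3Cre, 136 of 143 cells (95.1%, 90.2 to 98.0%) in HM and 234 of 281 cells (83.3%, 78.4 to 87.4%) in HZ. The S-rich call was less sharp, since 26.4% of cells lay within 1 gene of its limit, against 7.01% for the G2/M-rich call. G2/M-rich cells had a median of 641253 reads before thinning and the other cells 476046. A group of 28 cells with at least 100 CPM of each of the liver genes Apoa1, Afp and Fgb held 23 G2/M-rich cells among 25 deep enough (92.0%). Without those cells the share was 42.9%, 81.5% and 58.3% in HM pools of 18, 21 and 24 somites, against 47.5%, 28.1% and 28.2% in HZ pools of the same stages.

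**Figure D2:**
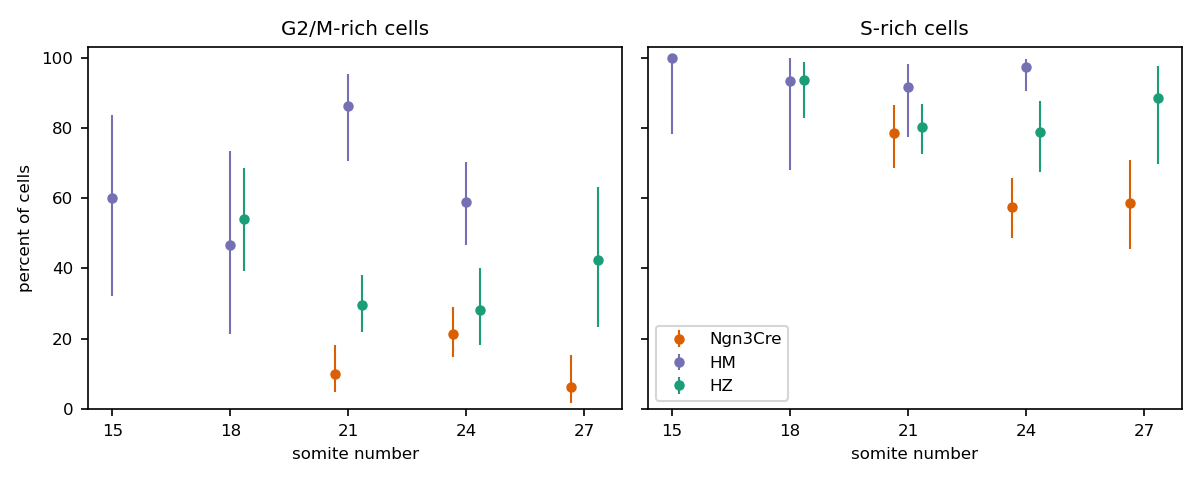
Share of G2/M-rich and of S-rich cells (%) in each tested pool, plotted by somite number with exact binomial 95% intervals that cover counting error. The G2/M-rich share of Ngn3Cre pools (6.35 to 21.3%) lies below that of HZ pools (28.2 to 54.2%), and the highest HM pool reaches 86.1% at 21 somites.

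Summed over pools, G2/M genes were lower in Ngn3Cre than in HZ cells, and S phase genes less so. Levels are CPM with TMM scaling, a correction for the makeup of each library, and are given for Ngn3Cre pools of 21, 24 and 27 somites and HZ pools of 18, 21, 24 and 27 somites. edgeR's quasi-likelihood test with Benjamini-Hochberg adjustment over all 18420 genes, with genotype and stage as factors, called 6 of 22 G2/M genes lower (all genes: 0.331% lower and 0.00543% higher, 0.337% in all). The median log2 fold change of the 22 was -2.01, and it was -0.02 over all genes. All 22 had a negative fold change and an unadjusted p under 0.05, a p that 1938 of all 18420 genes reached in either direction. In each of the 22, every Ngn3Cre pool lay below every HZ pool, which was not counted over all genes. Aurkb, the kinase of the chromosomal passenger complex, fell in Ngn3Cre: it had 7.97, 15.7 and 13.1 CPM in Ngn3Cre pools, against 64.5, 38.3, 45.8 and 90.9 CPM in HZ pools, a log2 fold change of -2.20 ± 0.28 (SE; adjusted p = 0.0222, edgeR). Cenpe, a kinetochore motor that aligns chromosomes, averaged 12.0 ± 3.86 CPM in Ngn3Cre pools (SD, n = 3) and 66.9 ± 23.6 CPM in HZ pools (SD, n = 4), a change of -2.47 ± 0.32 (SE; adjusted p = 0.0231, edgeR). Both genes act at the kinetochore or the centromere. Nusap1, which bundles spindle microtubules, averaged 19.1 ± 6.77 CPM in Ngn3Cre and 112 ± 44.5 CPM in HZ pools, with a change of -2.41 ± 0.34 (SE; adjusted p = 0.0253, edgeR). Plk1, a kinase of mitotic entry and exit, changed by -2.19 ± 0.32 (SE; adjusted p = 0.0281, edgeR), with 17.3 ± 4.97 CPM in Ngn3Cre and 81.3 ± 44.0 CPM in HZ pools. The highest HZ value of Plk1 was that of the pool of 27 somites, at 142 CPM. Bub1b, which encodes the spindle checkpoint protein BubR1, changed by -1.82 ± 0.26 (SE; adjusted p = 0.0253, edgeR). Top2a, the topoisomerase that untangles sister chromatids, had 42.8, 119 and 67.8 CPM in Ngn3Cre pools, against 316, 204, 235 and 359 CPM in HZ pools, and changed by -1.97 ± 0.33 (SE; adjusted p = 0.0452, edgeR). The 16 G2/M genes that did not pass had log2 fold changes from -2.46 to -1.42.

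No S phase gene passed in the same comparison, with 12 of 20 at an unadjusted p under 0.05 in edgeR, 4 called lower by DESeq2 and 0 by limma on mean log2 values. Of all 18420 genes, 1938 had such a p in edgeR. DESeq2 called 704 of all genes lower and 216 higher, and limma called 0. The median log2 fold change of the 20 was -0.64. Every Ngn3Cre pool lay below every HZ pool for 9 of them, again without a count over all genes: Mcm5, Mcm6, Mcm7, Gins2, Rrm1, Rrm2, Cdt1, Uhrf1 and Rpa2. Cdt1, which loads the MCM helicase on origins, had 22.0, 32.2 and 21.0 CPM in Ngn3Cre pools, against 47.8, 43.8, 38.5 and 41.8 CPM in HZ pools. For Mcm2, an MCM subunit, the pools overlapped, with 126, 105 and 125 CPM in Ngn3Cre and 106, 99.7, 106 and 120.4 CPM in HZ. By stage, the 22 G2/M genes summed to 473 CPM in Ngn3Cre against 1706 CPM in HZ at 21 somites, 871 against 1725 CPM at 24 somites and 531 against 3365 CPM at 27 somites. The 20 S phase genes summed to 912 CPM in Ngn3Cre against 1825 CPM in HZ at 21 somites, 1559 against 1655 CPM at 24 somites and 1162 against 2364 CPM at 27 somites. At 24 somites the 2 genotypes were thus nearest to each other in both lists.

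Ngn3Cre and HZ were also compared among cells of like Neurog3, Fev and Gcg level. The only Ngn3Cre pool with at least 10 cells low in all 3 genes was that of 24 somites, with 17 such cells. The pools of 21 and 27 somites held 7 and 8. With that pool alone for Ngn3Cre, the S phase genes had a median log2 fold change of 0.85 (19 of 20 positive) and the G2/M genes -1.20, against -0.22 over all genes. Counted by cell at 24 somites, 64.7% of these Ngn3Cre cells (11 of 17) and 57.1% of such HZ cells (12 of 21) were G2/M-rich. These values have no replicate check. Among cells high in Fev or Gcg, 0 of 42 and 0 of all 14133 genes passed in edgeR (2 residual degrees of freedom). An unadjusted p under 0.05 was found there for 2 of the 42 and 526 of all genes, and 21 of 22 G2/M genes had positive fold changes. Both alternatives used fewer cells, and nothing about the members in particular follows from the counts of 0. Leaving out the Ngn3Cre pool of 21 somites left 0 of 42 and 0 of all 18159 genes past the threshold, and leaving out the HZ pool of 21 somites left 0 of 42 and 6 of all 18151 genes. Without the Ngn3Cre pool of 24 somites 19 passed (all genes: 3 higher and 101 lower), and without the HM pool of 21 somites 13 passed (11 higher and 87 lower). Without the Ngn3Cre pool of 27 somites (0 higher and 99 lower) or the HM pool of 24 somites (1 higher and 17 lower) 2 passed each. Without the HZ pool of 27 somites 3 passed (0 higher and 103 lower).

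Between pools the members did not all move alike. The HM pool of 18 somites had the highest sum of S phase genes of the 11 pools (3561 CPM) and the lowest HM sum of G2/M genes (1838 CPM). Of the 22 G2/M genes 16 had their lowest HM value in that pool, and the others were Aurkb, Bub1, Bub1b, Kif20a, Birc5 and Nusap1. Ccnb1 had 380.2, 66.6, 237 and 184 CPM in HM pools of 15, 18, 21 and 24 somites, and Ccna2 had 90.3, 18.7, 104 and 64.3 CPM. Hmmr, a spindle-binding hyaluronan receptor, had 71.6, 12.0, 64.9 and 32.6 CPM, and Cdc20, which activates the anaphase-promoting complex, had 132, 41.4, 121 and 85.5 CPM in the same order. Aurkb had its highest HM value at 18 somites (98.1 CPM). Of the 20 S phase genes 14 had their highest HM value in that pool, and the other 6 (Mcm4, Mcm7, Ccne1, Rrm1, Tyms and Uhrf1) had theirs at 15 somites. Cdc6, which loads MCM with Cdt1, had 56.7, 71.7, 21.6 and 36.5 CPM in HM pools, Gins2 had 82.5, 135, 124 and 77.8 CPM and Hells, a chromatin remodeler, had 54.0, 118, 80.2 and 50.7 CPM. That pool held 17 cells, so each of its cells weighs heavily in these values. Among HZ pools 18 G2/M genes were highest at 27 somites and 4 at 18 somites: Cdk1 had 229.9, 133, 133 and 269 CPM and Birc5 (survivin, of the chromosomal passenger complex) had 251, 127, 114 and 249.6 CPM at 18, 21, 24 and 27 somites. Among Ngn3Cre pools 16 S phase genes and 19 G2/M genes were highest at 24 somites, and Mki67 had 15.5, 37.8 and 28.8 CPM at 21, 24 and 27 somites.

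**Figure D3:**
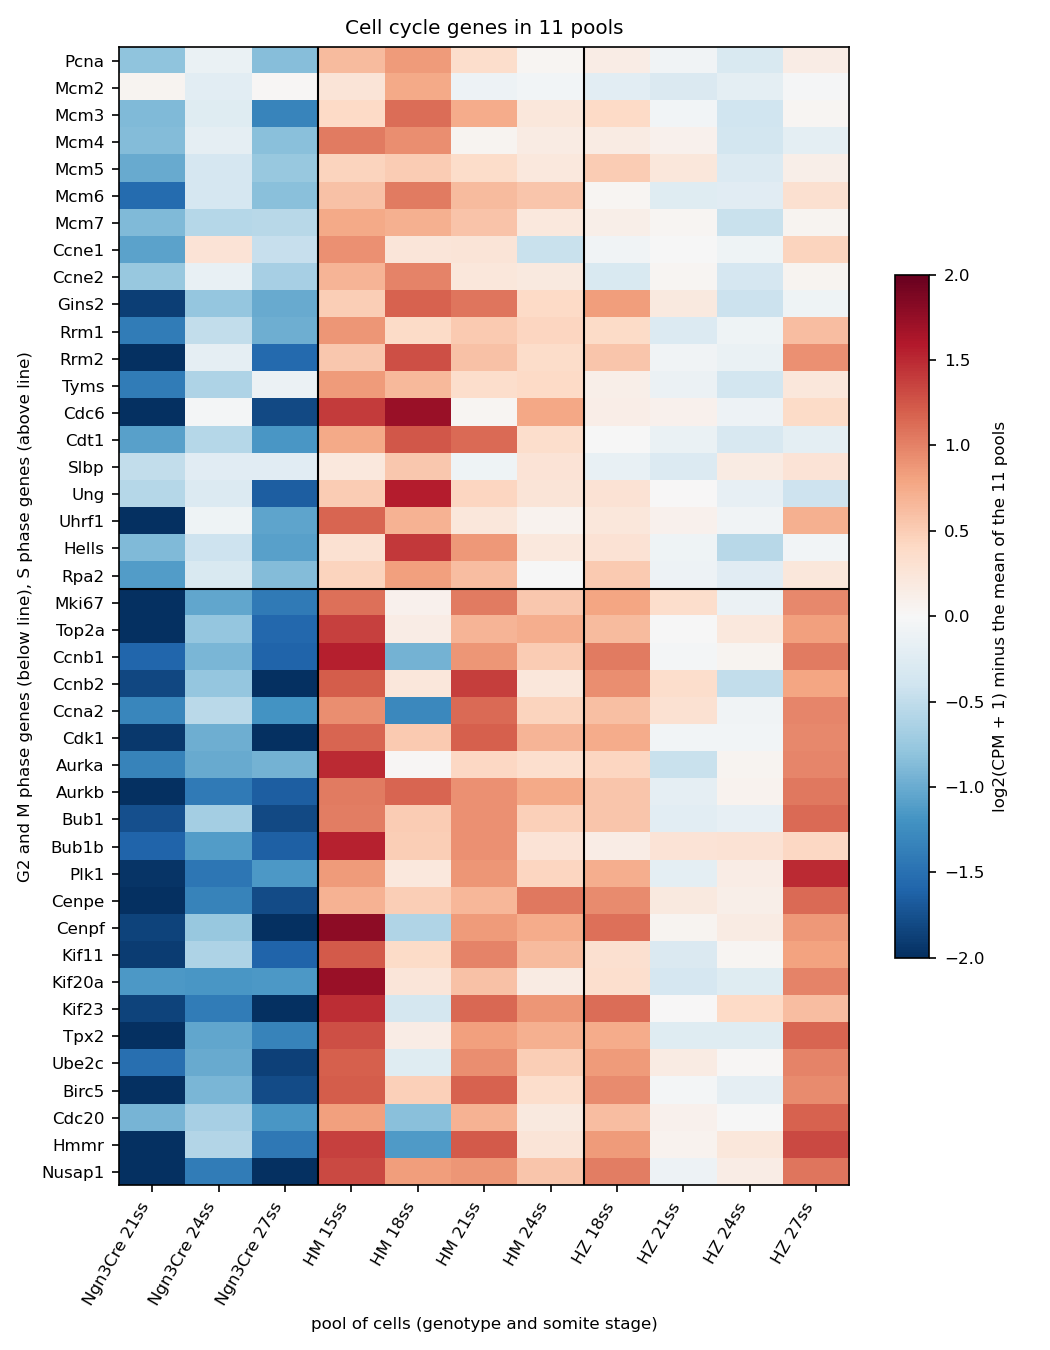
Heat map of the 42 genes (rows, S phase then G2/M) in the 11 tested pools (columns), as log2(CPM + 1) minus the gene's mean over the pools. The G2/M rows are low in all 3 Ngn3Cre pools, and 14 of the 20 S phase rows have their highest HM value at 18 somites.

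In HM cells, with GFP at both Neurog3 alleles, all 20 S phase genes and 16 of 22 G2/M genes had positive fold changes against HZ, but no single gene passed the test (all genes, either direction: 1.47%, higher: 0.0923%, lower: 1.38%). The mix of cells differed, with 57.3% of HM and 40.5% of HZ cells low in Neurog3, Fev and Gcg, and its part was not tested. Of the 42, 7 had an unadjusted p under 0.05 in edgeR, as had 2469 of all 18420 genes. DESeq2 called 3 (all genes: 314 higher and 1072 lower). Limma called 1 on mean log2 CPM (all genes: 110 higher and 61 lower) and 0 on mean log2 TPM (all genes: 74 higher and 36 lower). The S phase genes had a median log2 fold change of 0.53 and the G2/M genes of 0.20, and it was -0.09 over all genes. Every HM pool lay above every HZ pool for 5 S phase genes (Mcm6, Mcm7, Ccne2, Tyms and Cdt1) and for no G2/M gene. How many of all genes did so was not counted. Cdt1 had 82.5, 115, 106 and 61.6 CPM in HM pools of 15, 18, 21 and 24 somites, against 47.8, 43.8, 38.5 and 41.8 CPM in HZ pools of 18, 21, 24 and 27 somites, a log2 fold change of 1.05 ± 0.26 (SE; adjusted p = 0.0962, edgeR). Mcm6, another MCM subunit, had 248, 341, 256 and 243 CPM in HM pools, against 169.6, 139.6, 142 and 207 CPM in HZ pools, a log2 fold change of 0.83 ± 0.25 (SE; adjusted p = 0.166, edgeR). Both genes belong to origin licensing, the step between mitosis and S phase. The G2/M genes with the smallest p were Aurkb, with 86.2 ± 10.2 CPM in HM and 59.9 ± 23.4 CPM in HZ (SD, n = 4 pools each; log2 fold change 0.71 ± 0.27, adjusted p = 0.277), and Kif11, the motor that separates spindle poles, with a log2 fold change of 0.55 ± 0.38 (adjusted p = 0.586) by the same edgeR test. Over 8 other settings, 1 of them restricted to cells low in Neurog3, Fev and Gcg, Cdt1 ran from 0.60 to 1.74 and Mcm6 from 0.57 to 1.47. Aurkb ran from 0.28 to 1.13 and Kif11 from -0.59, in those low cells, to 0.90. Without the Ngn3Cre pool of 24 somites Cdt1 and Mcm6 passed (all genes: 16 higher and 204 lower), and without the HM pool of 24 somites Cdt1 passed (5 higher and 294 lower).

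The direction of the G2/M genes between HM and HZ turned with stage. At 18 somites 19 of 22 were lower in HM, and they summed to 1838 CPM in HM against 2926 CPM in HZ. At 21 somites all 22 were higher in HM (3250 against 1706 CPM in HZ), and at 24 somites 21 of 22 were (2489 against 1725 CPM in HZ). S phase genes were higher in HM at all 3 stages, with sums of 3561 against 2241 CPM in HZ at 18 somites, 2616 against 1825 CPM at 21 somites and 2301 against 1655 CPM at 24 somites. Each stage has 1 pool per genotype, so these differences have no replicate check. Liver markers (Apoa1, Afp, Fgb, Ttr, Alb and Serpina1b) summed to 8470 and 14459 CPM in the HM pools of 18 and 21 somites and 9379 CPM in the HZ pool of 18 somites, against 231 to 2368 CPM in the other tested pools. Without the 28 cells high in liver genes, 0 of 42 genes passed between HM and HZ, with 6 at an unadjusted p under 0.05 in edgeR, and 5 passed between Ngn3Cre and HZ. Of all 18002 genes, 2752 had such a p between HM and HZ. Between Ngn3Cre and HZ, 6 of all genes were called higher and 55 lower.

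Across 15 to 27 somites no gene of either list passed for a slope with stage or for an HM against HZ difference of slopes, and neither did any gene of the table (all genes: 0% and 0%). At an unadjusted p under 0.05 in edgeR stood 1 of 42 for the slope and 4 for its difference. Of all genes, 1377 of 16478 and 1232 of 16207 stood there. DESeq2 and limma called 0 of 42 in both. Over all genes DESeq2 called 167 higher and 138 lower for the slope, and 130 higher and 41 lower for its difference. The median slope was -0.03 per somite on the log2 scale for S phase genes and 0.00 for G2/M genes, with 0.00 over all genes. Among S phase genes the smallest p belonged to Mcm4, an MCM subunit, at -0.07 ± 0.03 (SE; adjusted p = 0.556, edgeR) per somite, and Ung, which removes uracil from DNA, at -0.10 ± 0.05 (adjusted p = 0.615). Among G2/M genes they were Plk1 at 0.05 ± 0.04 (adjusted p = 0.785) and Bub1b at -0.04 ± 0.04 (adjusted p = 0.818). For the HM minus HZ slope, edgeR gave -0.19 ± 0.06 (adjusted p = 0.642) for Ccne1 (cyclin E, which starts S phase), -0.17 ± 0.05 (adjusted p = 0.642) for Uhrf1, which keeps DNA methylation on new strands, -0.23 ± 0.10 (adjusted p = 0.648) for Kif20a, a motor of cytokinesis, and -0.15 ± 0.06 (adjusted p = 0.655) for Bub1b. In simulated counts, a difference in slope amounting to a log2 size of 2 over the range was recovered for 2.82% of changed genes and a slope of that size for 46.4%.

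Neurog3-high cells had lower levels of many genes of both lists than Neurog3-low cells of the same pools. Reads were summed, within each pool, over Neurog3-high cells (at least 100 CPM) and Neurog3-low cells (under 10 CPM), and compared within the 7 pools that had at least 5 of each, 3 of Ngn3Cre (21, 24 and 27 somites) and 4 of HZ (18, 21, 24 and 27 somites). Neurog3-low cells could still be high in Fev or Gcg. The Ngn3Cre pool of 24 somites had 100 Neurog3-low cells and 17 cells low in all of Neurog3, Fev and Gcg. In the HZ pool of 21 somites these numbers were 69 and 63. edgeR's quasi-likelihood test with Benjamini-Hochberg adjustment called 10 of 20 S phase genes and 11 of 22 G2/M genes lower in Neurog3-high cells (all genes: 2.52% lower and 2.95% higher, 5.47% in all). Their median log2 fold changes were -0.98 and -2.17, against -0.12 over all genes. Rrm2 had 15.3, 37.3 and 11.1 CPM in Ngn3Cre and 157, 11.1, 48.3 and 168 CPM in HZ pools among Neurog3-high cells, against 67.7, 192 and 83.4 CPM in Ngn3Cre and 256, 255, 253 and 394 CPM in HZ pools among Neurog3-low cells. Rrm2 was lower in the Neurog3-high cells of all 7 pools, with a log2 fold change of -2.29 ± 0.37 (SE; adjusted p = 0.00531, edgeR). Pcna had 55.9, 48.0 and 39.7 CPM in Ngn3Cre and 92.2, 57.5, 51.7 and 104 CPM in HZ pools among Neurog3-high cells, against 87.7, 131 and 76.5 CPM in Ngn3Cre and 144, 166, 138 and 145 CPM in HZ pools among Neurog3-low cells. Pcna, the sliding clamp of DNA polymerases, was lower in all 7 pools as well, with a log2 fold change of -1.02 ± 0.17 (SE; adjusted p = 0.00726, edgeR). Among G2/M genes, Bub1b changed by -2.43 ± 0.43 (adjusted p = 0.00827) and Top2a by -2.33 ± 0.42 (adjusted p = 0.00991) in the same edgeR test. The other S phase genes with the smallest p were Gins2 of the replicative helicase at -1.58 ± 0.31 (adjusted p = 0.0153), Uhrf1 at -1.19 ± 0.24 (adjusted p = 0.0160), Tyms, the thymidylate synthase, at -0.9995 ± 0.20 (adjusted p = 0.0164), and Rrm1, the large reductase subunit, at -1.10 ± 0.23 (adjusted p = 0.0175). All 22 G2/M genes had a negative fold change and an unadjusted p under 0.05, a p that 3462 of all 16081 genes reached in either direction. Only 6 of the 22 were lower in the Neurog3-high cells of all 7 pools. Bub1b, 1 of those 6, had 3.63, 11.6 and 4.89 CPM in Ngn3Cre and 16.0, 3.97, 4.62 and 11.4 CPM in HZ pools among Neurog3-high cells, against 42.0, 19.2 and 14.9 CPM in Ngn3Cre and 57.4, 69.4, 45.9 and 42.0 CPM in HZ pools among Neurog3-low cells. In the Ngn3Cre pool of 24 somites 5 G2/M genes were higher in Neurog3-high cells (Plk1, Cenpe, Kif23, Tpx2 and Hmmr), among them Kif23, a motor of cytokinesis, at 31.2 CPM in Neurog3-high and 14.1 CPM in Neurog3-low cells. In the HZ pool of 27 somites 14 were higher, among them Mki67 at 201 CPM in Neurog3-high and 129 CPM in Neurog3-low cells.

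Part of the S phase list did not follow. Mcm2 had a log2 fold change of 0.09 and Slbp, which binds histone mRNA, of -0.08, and Mcm3, Mcm4, Mcm5, Mcm7, Ccne1, Ccne2, Ung and Rpa2 also stayed short of the threshold. Mcm2 had 142, 91.1 and 116 CPM in Ngn3Cre and 157, 100.4, 92.6 and 110.0 CPM in HZ pools among Neurog3-high cells, against 82.7, 111 and 147 CPM in Ngn3Cre and 77.9, 105, 118 and 116 CPM in HZ pools among Neurog3-low cells. Mcm2 was thus higher in the Neurog3-high cells of some pools and lower in others, so its direction was not shared. The Neurog3-high cells of the HZ pool of 27 somites numbered 5. Without that pool 35 of the 42 genes passed, whereas 9 passed without the Ngn3Cre pool of 21 somites, 10 without that of 27 somites, and 8 without the HZ pool of 21 or of 24 somites. Calls over all genes moved the same way. They were 474 higher and 406 lower with every pool, and 797 higher and 864 lower without the HZ pool of 27 somites. Without each of the other pools named they were 194 to 289 higher and 131 to 221 lower. Against cells low in all 3 of Neurog3, Fev and Gcg, 37 of 42 passed (all 15296 genes: 1118 higher and 1312 lower).

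Fev-high cells (at least 100 CPM) had low levels of every G2/M gene compared with Fev-low cells (under 10 CPM). In the 5 pools with at least 5 Fev-high and 5 Fev-low cells (Ngn3Cre of 21, 24 and 27 somites, HZ of 21 and 24 somites), all 22 G2/M genes and 14 of 20 S phase genes were called lower (edgeR's quasi-likelihood test, Benjamini-Hochberg adjustment; all genes: 5.59% lower and 2.86% higher, 8.45% in all). The median log2 fold changes were -3.98 for G2/M and -1.77 for S phase genes, against -0.22 over all genes. Ube2c had 8.30, 7.13 and 13.6 CPM in Ngn3Cre and 10.3 and 12.3 CPM in HZ pools among Fev-high cells, against 99.9, 119 and 68.9 CPM in Ngn3Cre and 231 and 242 CPM in HZ pools among Fev-low cells. Ube2c, the E2 enzyme with which the anaphase-promoting complex marks cyclin B, fell in Fev-high cells by 3.75 ± 0.30 (SE; adjusted p = 7.74e-05, edgeR) on the log2 scale. Cdk1 had 8.24, 6.47 and 0.835 CPM in Ngn3Cre and 9.74 and 4.26 CPM in HZ pools among Fev-high cells, against 54.7, 92.8 and 44.3 CPM in Ngn3Cre and 156 and 184 CPM in HZ pools among Fev-low cells. Cdk1 changed by -4.19 ± 0.40 (SE; adjusted p = 0.000182, edgeR). No Fev-high value of Ube2c or Cdk1 reached a Fev-low value of any pool. The others with the smallest p were Top2a at -2.82 ± 0.29 (adjusted p = 0.000314), Tpx2, which activates Aurora A on the spindle, at -3.35 ± 0.35 (adjusted p = 0.00033), the kinetochore protein Cenpf at -4.49 ± 0.49 (adjusted p = 0.000363) and Ccnb1, the cyclin B1 partner of Cdk1, at -3.74 ± 0.42 (adjusted p = 0.000421). Of the helicase, Mcm6 changed by -2.08 ± 0.22 (adjusted p = 0.00033) and Mcm5 by -1.80 ± 0.19 (adjusted p = 0.00033) in the same edgeR test. Mcm6 had 29.4, 43.8 and 25.8 CPM in Ngn3Cre and 23.5 and 38.6 CPM in HZ pools among Fev-high cells, against 70.2, 166 and 126 CPM in Ngn3Cre and 164 and 173 CPM in HZ pools among Fev-low cells. The S phase genes short of the threshold were Mcm4, Ccne1, Ccne2, Slbp, Ung and Rpa2, and Slbp had a log2 fold change of 0.10.

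Gcg-high cells (at least 1000 CPM) were compared with Gcg-low cells (under 100 CPM) in the same way, and every G2/M gene was called lower over the pools. In the 6 pools with at least 5 of each (3 of Ngn3Cre and HZ of 21, 24 and 27 somites), all 22 G2/M genes and 17 of 20 S phase genes were called lower (edgeR's quasi-likelihood test, Benjamini-Hochberg adjustment; all genes: 7.36% lower and 3.89% higher, 11.3% in all). Of the 22 G2/M genes 20 were lower in the Gcg-high cells of all 6 pools, and the exceptions lay in the Ngn3Cre pool of 24 somites, where Cenpf had 44.0 CPM in Gcg-high and 25.0 CPM in Gcg-low cells and Ccnb1 63.4 and 52.7 CPM. Median log2 fold changes were -3.80 for G2/M and -1.61 for S phase genes, against -0.15 over all genes. Plk1 had 0.919, 8.69 and 0.319 CPM in Ngn3Cre and 1.44, 1.49 and 1.55 CPM in HZ pools among Gcg-high cells, against 13.8, 27.4 and 62.9 CPM in Ngn3Cre and 46.6, 69.6 and 232 CPM in HZ pools among Gcg-low cells. Plk1 was lower in the Gcg-high cells of all 6 pools, with a log2 fold change of -5.13 ± 0.74 (SE; adjusted p = 0.00137, edgeR). Rrm1 had 35.3, 44.8 and 24.3 CPM in Ngn3Cre and 36.3, 40.1 and 60.2 CPM in HZ pools among Gcg-high cells, against 46.3, 156 and 95.5 CPM in Ngn3Cre and 108, 139 and 287 CPM in HZ pools among Gcg-low cells. Rrm1 was lower in all 6 pools too, with -1.64 ± 0.24 (SE; adjusted p = 0.00135, edgeR), and Rrm2 changed by -3.41 ± 0.50 (adjusted p = 0.00162). Ccna2, the cyclin of S phase and G2, changed by -2.69 ± 0.39 (adjusted p = 0.00137), Nusap1 by -4.54 ± 0.69 (adjusted p = 0.00188), Top2a by -3.38 ± 0.52 (adjusted p = 0.00202), Mki67 by -4.42 ± 0.68 (adjusted p = 0.00202) and Cdt1 by -1.93 ± 0.29 (adjusted p = 0.00196) in the same edgeR test. Pcna (edgeR adjusted p = 0.0514), Slbp and Ung did not pass. Slbp and Ung were the pair of S phase genes that passed in none of the Neurog3, Fev and Gcg comparisons.

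**Figure D4:**
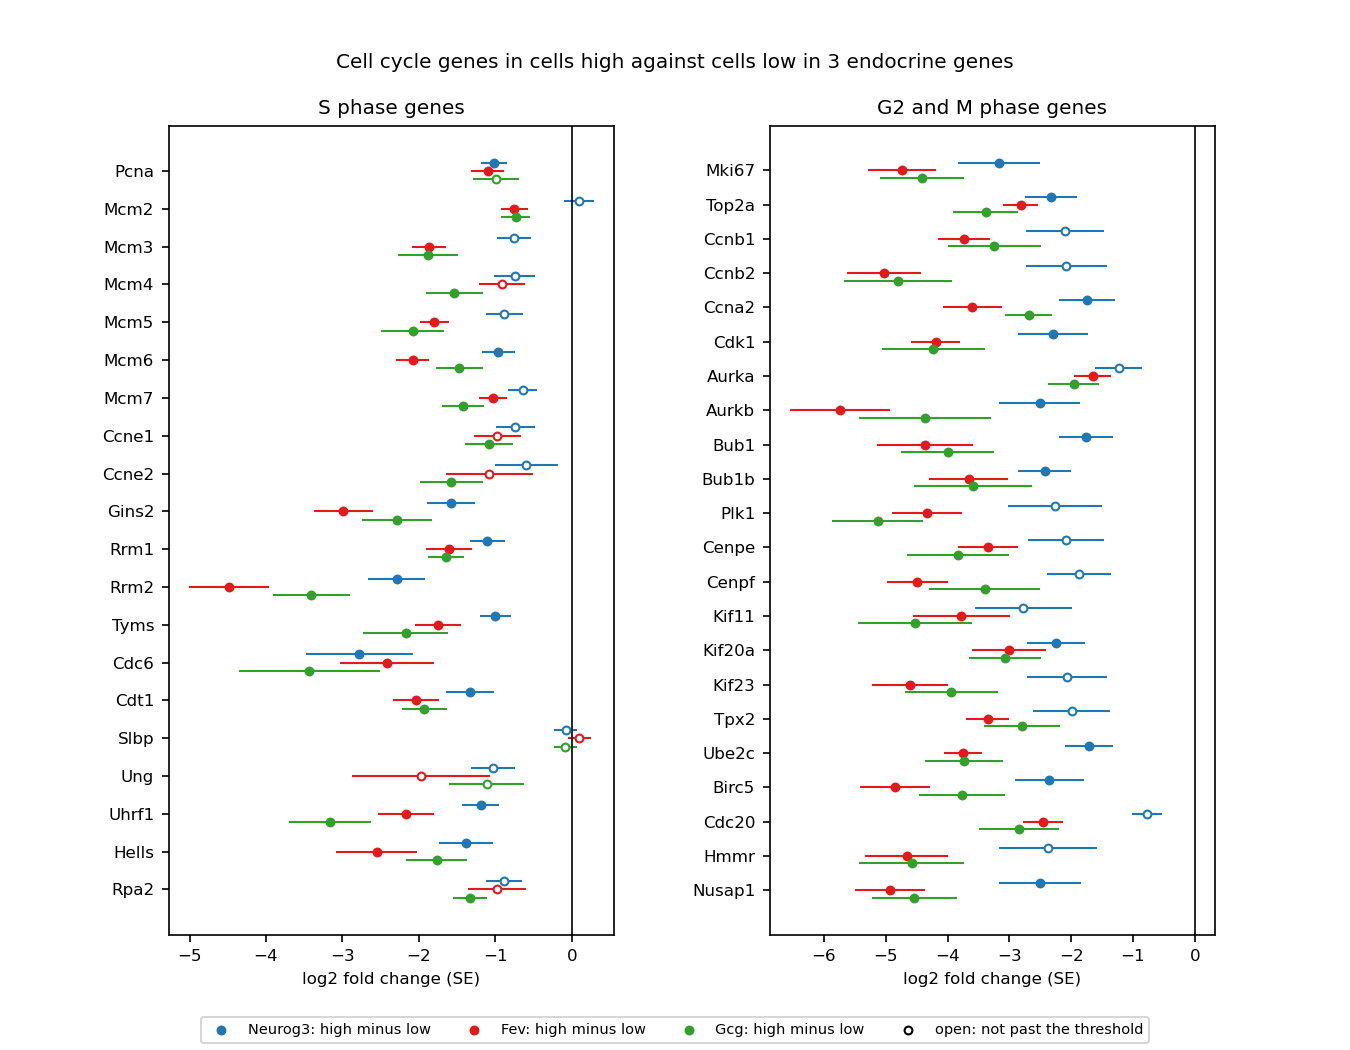
Log2 fold change ± SE of each of the 42 genes for Neurog3-high over Neurog3-low, Fev-high over Fev-low and Gcg-high over Gcg-low cells, with open symbols for genes not past an edgeR adjusted p of 0.05. G2/M genes reach medians of -3.98 (Fev) and -3.80 (Gcg), and S phase genes medians of -1.77 and -1.61.

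Counted by cell over all genotypes together, the share of G2/M-rich cells was lower in each higher bin of each of the 3 genes. Along Neurog3 it was 43.4% (159 of 366) under 10 CPM, 37.8% (59 of 156) at 10 to 100 CPM, 8.67% (13 of 150) at 100 to 1000 CPM and 0% (0 of 41) at 1000 CPM or more, where 0 of 41 cells allows a share of up to 7.32% by the limit of 3 counts (exact binomial upper limit 8.60%). Along Fev it was 39.5% (219 of 555) under 10 CPM, 14.5% (10 of 69) at 10 to 100 CPM, 2.38% (2 of 84) at 100 to 1000 CPM and 0% (0 of 5) at 1000 CPM or more, where 0 of 5 cells limits the share only loosely. Along Gcg it was 53.5% (139 of 260) under 10 CPM, 28.8% (67 of 233) at 10 to 100 CPM, 20.2% (20 of 99) at 100 to 1000 CPM and 4.13% (5 of 121) at 1000 CPM or more. The genotypes fill these bins unequally, and 36 of the 41 cells at 1000 CPM or more of Neurog3 were Ngn3Cre. Within Ngn3Cre the share along Neurog3 was 19.0%, 20.4%, 8.06% and 0% from the lowest bin to the highest, and within HZ it was 50.4%, 41.2%, 9.09% and 0%. HM cells had 72.4% under 10 CPM and 50.0% at 10 to 100 CPM of Neurog3. Along Gcg the share was 16.0%, 19.4%, 19.2% and 5.38% within Ngn3Cre and 50.0%, 29.2%, 18.8% and 0% within HZ. At 10 to 100 CPM the share was 9.76% for Fev and 20.4% for Neurog3 in Ngn3Cre, and 16.0% for Fev and 41.2% for Neurog3 in HZ. In cells high in liver genes, 10.7% (3 of 28) had at least 10 CPM of Neurog3, 3.57% at least 100 CPM, 0% at least 10 CPM of Fev (0 of 28, which allows up to 10.7%) and 14.3% at least 10 CPM of Gcg, so 10 to 100 CPM of Neurog3 or Gcg also occurred where neither gene is known to be active. Median depth before thinning was 414837 reads at 100 to 1000 CPM of Neurog3 and 559148 reads under 10 CPM. Over all genotypes the S-rich share was 62.7% at 100 to 1000 CPM of Neurog3 and 81.7% under 10 CPM, 57.1% at 100 to 1000 CPM of Fev and 83.4% under 10 CPM, and 57.9% at 1000 CPM or more of Gcg and 90.4% under 10 CPM.

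Pool by pool, the G2/M-rich share averaged 8.88 ± 8.56% in Neurog3-high cells and 35.2 ± 21.3% in Neurog3-low cells (SD, n = 7 pools). The difference of -26.3 percentage points had the same sign in 7 of 7 pools (exact two-sided permutation test by sign flips, p = 0.0156, the smallest 7 pools can give, 0.0469 adjusted over 6 tests). For Fev the shares were 0.667 ± 1.49% in high and 24.1 ± 12.1% in low cells, lower in 5 of 5 pools, where the exact permutation test cannot go below p = 0.0625. For Gcg they were 2.34 ± 3.63% in high and 34.1 ± 23.3% in low cells, lower in 6 of 6 pools (exact permutation p = 0.0312, the smallest 6 pools can give, adjusted 0.0625). The G2/M-rich cells among Gcg-high cells were all Ngn3Cre, 5 of 93, against 0 of 28 in HZ, which allows up to 10.7%. S-rich shares differed by -17.4 points along Neurog3 (7 of 7 pools lower, exact permutation p = 0.0156, adjusted 0.0469), by -25.1 points along Fev (5 of 5, exact permutation p = 0.0625) and by -17.3 points along Gcg (4 of 6, exact permutation p = 0.125). HM cells entered none of these tests, since too few of them reached the limits.

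**Figure D5:**
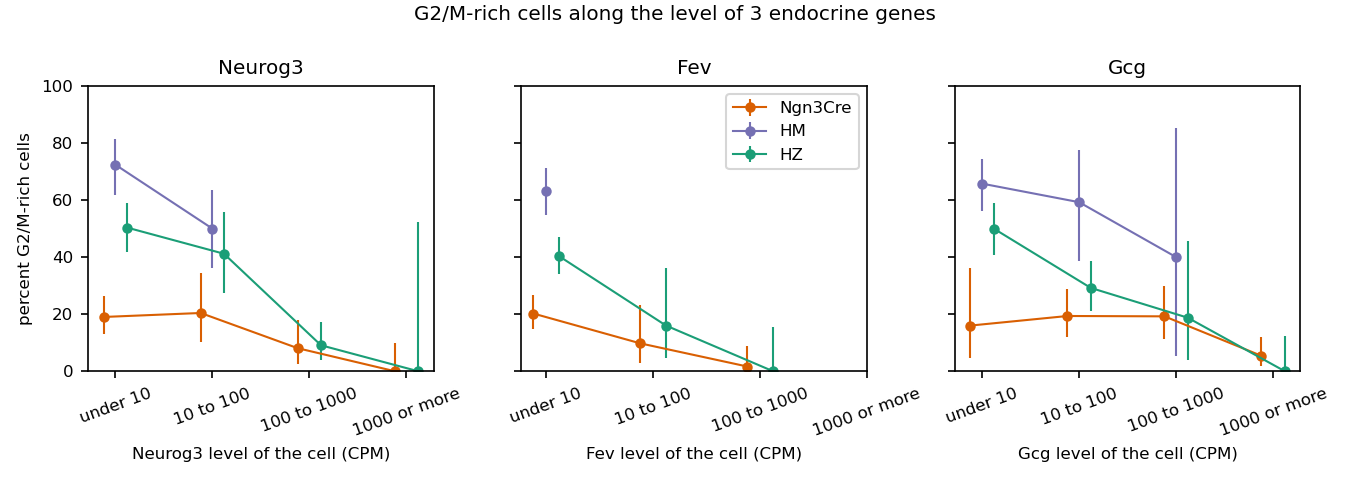
Share of G2/M-rich cells (%) in bins of Neurog3, Fev and Gcg CPM per cell, by genotype, for bins of at least 5 cells, with exact binomial 95% intervals. Over all cells the share is 43.4% under 10 CPM of Neurog3 and 8.67% at 100 to 1000 CPM.

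When the 3 genes were combined, G2/M-rich cells lay mostly among the cells low in all of them. Of cells low in all 3, 139 of 219 cells were G2/M-rich (63.5%, 95% interval 56.7 to 69.9%). That share was 51.6% in Ngn3Cre (16 of 31, 33.1 to 69.8%), 72.5% in HM (58 of 80, 61.4 to 81.9%) and 60.2% in HZ (65 of 108, 50.3 to 69.5%), and the difference between genotypes was not tested. In HM minus HZ it differed by -21.4 points at 18 somites (4 of 8 cells against 20 of 28), by 35.6 points at 21 somites (23 of 26 against 28 of 53) and by 11.3 points at 24 somites (26 of 38 against 12 of 21). In Ngn3Cre minus HZ it differed by -2.83 points at 21 somites (3 of 6 cells against 28 of 53) and by 7.56 points at 24 somites (11 of 17 against 12 of 21). Neurog3-high cells that were low in Fev and Gcg held 8 G2/M-rich cells of 103 (7.77%). Those high in both Neurog3 and Fev held 1 of 35 (2.86%), Fev-high cells without high Neurog3 or Gcg 1 of 25 (4.00%), and Gcg-high cells 5 of 121 (4.13%). The G2/M-rich share was thus also low in Neurog3-high cells that were low in Fev and Gcg. S-rich shares in the same order of classes were 95.0% in cells low in all 3 and then 69.9%, 51.4%, 56.0% and 57.9%. By gene, Cdk1 had a read in 77.6% of cells low in all 3 but in 31.1%, 28.6%, 40.0% and 21.5% of the 4 other classes, and Slbp in 94.5%, against 93.2%, 100.0%, 100.0% and 96.7%.

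Other genes of the cycle were read beside the 42. Of 37 genes of commitment to S phase and of inhibitors, 2 were lower and 0 higher in HM than in HZ (all genes: 1.38% lower and 0.0923% higher). They were Cdkn1a, the Cdk inhibitor p21, with a log2 fold change of -2.12 ± 0.28 (SE; adjusted p = 0.00660, edgeR), and Btg2, an antiproliferative gene, with -3.47 ± 0.51 (adjusted p = 0.0114) by the same edgeR test. The same pair rose in Neurog3-high against Neurog3-low cells, Cdkn1a by 2.41 ± 0.19 (adjusted p = 6.4e-05) and Btg2 by 2.26 ± 0.29 (adjusted p = 0.00157), together with Gadd45a, a growth arrest gene, by 2.70 ± 0.29 (adjusted p = 0.000492). In that comparison 4 of 36 genes tested were higher, the fourth being Gadd45g (1.88 ± 0.28, adjusted p = 0.00361), and 4 were lower (all genes: 2.95% higher and 2.52% lower). Along Gcg, 16 of 37 were lower and 0 higher (all genes: 7.36% lower and 3.89% higher), and Cdkn1a was itself lower in Gcg-high cells, at -1.60 ± 0.20 (adjusted p = 0.000646) in edgeR, with E2f1, an activator of S phase genes, at -2.13 ± 0.31 (adjusted p = 0.00148). Along Fev, 7 of 36 were lower (all genes: 5.59% lower and 2.86% higher) and 1 higher, Btg2 (log2 fold change 0.86 ± 0.16, edgeR adjusted p = 0.00754), also named after its value was seen, and Mycn, a growth-promoting Myc factor, changed by -6.09 ± 0.64 (adjusted p = 0.00033).

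Of 30 other replication genes, edgeR called 0 between HM and HZ (median log2 fold change 0.38), with 6 at an unadjusted p under 0.05, 0 called by DESeq2 and 1 by limma. It called 0 between Ngn3Cre and HZ (median -0.84), with 17 at an unadjusted p under 0.05, 7 called by DESeq2 and 0 by limma. Of all 18420 genes, edgeR gave an unadjusted p under 0.05 to 2469 between HM and HZ and to 1938 between Ngn3Cre and HZ. Lower were 6 in Neurog3-high, 13 in Fev-high and 15 in Gcg-high cells (all genes lower: 2.52%, 5.59% and 7.36%), and none of the 30 was higher there. Chaf1b, a histone chaperone of replication, changed by -4.95 ± 0.82 (SE; adjusted p = 0.00379, edgeR) in Fev-high cells. Lig1, the ligase that joins Okazaki fragments, changed by -2.0046 ± 0.34 (adjusted p = 0.00406) in Fev-high and by -2.49 ± 0.38 (adjusted p = 0.00198) in Gcg-high cells by edgeR. Of 39 other mitosis genes, edgeR, DESeq2 and limma each called 0 between HM and HZ, with 3 at an unadjusted p under 0.05 in edgeR, and 3 were lower in Ngn3Cre than in HZ (all genes lower: 0.331%): Prc1 (-1.84 ± 0.23, adjusted p = 0.0222), which bundles the central spindle, Incenp (-1.90 ± 0.24, adjusted p = 0.0222), the scaffold of the Aurora B complex, and Aspm (-2.71 ± 0.42, adjusted p = 0.0362), a spindle pole protein, by edgeR. Lower were 16 in Neurog3-high, 26 in Fev-high and 29 in Gcg-high cells (all genes lower: 2.52%, 5.59% and 7.36%), and 1, chosen here after its value was seen, was higher in Neurog3-high cells, the Cdk1-activating phosphatase Cdc25b (log2 fold change 1.55 ± 0.27, edgeR adjusted p = 0.00760). Kif2c, a microtubule depolymerase, changed by -6.06 ± 0.68 (adjusted p = 0.000421) in Fev-high and by -4.88 ± 0.66 (adjusted p = 0.000985) in Gcg-high cells by edgeR.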

How the data were processed

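The authors deposited whole read counts per gene and cell, not scaled, and TPM values for the same cells, which entered 1 alternative. The tools named per the submitters' processing notes are HISAT2 2.1.0, Trimmomatic 0.39 and FastQC 0.11.9, with mm10 and GRCm38 as builds. Which counter, annotation and strand setting were applied was not given in the sources used here.

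The genes, lists and alternatives were chosen with earlier results of these data known. Counts were summed over the cells of a genotype and stage, and the 11 pools of at least 10 cells were tested with edgeR 4.0.16 (R 4.3.3): quasi-likelihood test, TMM scaling, genes of low counts removed by filterByExpr, Benjamini-Hochberg adjustment at 0.05. Genotype contrasts held stage as a factor, so the HM pool of 15 somites, alone at its stage, bore on the scaling and the means but not on the HM against HZ difference. High against low comparisons had the pool as a block, with at least 5 cells per sum. SEs were taken from the log2 fold change and the square root of F. For each comparison, the 8 members with the smallest p among those past the threshold are given in full, or the 2 S phase and 2 G2/M members with the smallest p where none passed, and at most 3 genes of each other cell cycle list. CPM were computed here from the counts; no cell was removed from the sums, and no doublet caller was run. Cells were thinned at random to 100000 reads with 1 seed, which left out 117 cells. Shares were compared between high and low cells with exact sign-flip permutation tests over pools. DESeq2 1.42.0 and limma 3.58.1 (on the mean over cells of log2 values with a pseudocount of 1) served as alternatives. Each fit was tested on simulated counts. With log2 changes of 2, edgeR recovered 65.5% of changed genes for HM against HZ, 87.9% for Ngn3Cre against HZ and 86.6% for Neurog3-high against Neurog3-low cells. With log2 changes of 1, it recovered 20.7%, 20.3% and 41.3% in the same order.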

Additional observations from a re-analysis of the deposited data

Results flagged for a closer look

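Each of the 42 genes, the G2/M-rich share and the S-rich share were looked at in the 4 HM pools and in the 4 HZ pools for a pool that stood apart from the others by Dixon's criterion at the 95% level. Of 88 such groups 4 were marked, and chance marks about 1 in 20 groups. Mcm6 had 340.8 CPM in the HM pool of 18 somites, and the next HM pool had 256 CPM. Ung had 83.4 CPM in the same HM pool of 18 somites, and the next had 39.6 CPM. Mcm7 was lowest in the HZ pool of 24 somites at 106 CPM, and the next HZ pool had 149 CPM. Ccne1 was highest in the HZ pool of 27 somites at 57.9 CPM, and the next had 42.1 CPM. All 4 are S phase genes, and the HM pool of 18 somites, which gave 2 of them, also had the highest sum of S phase genes.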

How the results depend on the processing

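Counts of genes past the threshold were compared over other scalings, filters, tests, cells and left-out pools. No paired analysis was possible because the cell numbers in the labels only name cells within a pool, while the high against low comparisons set cells of the same pool against each other throughout. Of the 42 genes, 0 passed between HM and HZ, against 3 by DESeq2, 1 by limma on mean log2 CPM and 0 to 2 with each pool left out. All genes called between HM and HZ were 17 higher and 254 lower, against 314 and 1072 by DESeq2 and 110 and 61 by limma on mean log2 CPM. With each pool left out they were 0 to 31 higher and 88 to 294 lower. Between Ngn3Cre and HZ 6 passed, against 11 without the filter on low counts, 26 by DESeq2, 0 by limma on mean log2 CPM, 0 by limma on mean log2 TPM, 0 in cells high in Fev or Gcg, and 0 to 19 with each pool left out. All genes called there were 1 higher and 61 lower, against 6 and 99 without the filter and 216 and 704 by DESeq2. Limma called 0 of all genes, as did edgeR in cells high in Fev or Gcg. Between Neurog3-high and Neurog3-low cells 21 passed, against 39 by DESeq2, 13 with high cells taken from 50 CPM, 37 against cells low in all 3 genes, and 8 to 35 with each pool left out. All genes called there were 474 higher and 406 lower, against 994 and 1562 by DESeq2 and 405 and 332 with high cells taken from 50 CPM. Along Fev 36 passed (26 to 39 over the other settings, 32 to 38 with each pool left out) and along Gcg 39 (31 to 40, and 32 to 37). All genes called along Fev were 450 higher and 879 lower, against 436 to 943 and 654 to 1986 over the other settings. With each pool left out they were 229 to 429 higher and 439 to 827 lower. Along Gcg they were 615 higher and 1163 lower, against 586 to 1220 and 1067 to 2198 over the other settings. With each pool left out they were 346 to 527 higher and 691 to 1023 lower. For the stage slope and its difference 0 passed in every setting and with each pool left out. Liver-marker cells were left out only after the data were seen. The cause of these changes was not tested, except that left-out pools and filtered cells give fewer data.

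Of the values of single named genes under another setting or without 1 pool, 586 kept their direction and side of the threshold, 56 fell short of it, 5 newly passed and 9 changed sign. In cells high in Fev or Gcg, the Ngn3Cre minus HZ log2 fold change was 1.25 for Aurkb, 0.51 for Cenpe, 1.80 for Bub1b, 0.50 for Nusap1, 1.02 for Plk1 and 0.37 for Top2a, none past the threshold (edgeR adjusted p = 0.999666). Kif11 in HM minus HZ was -0.59 in cells low in all 3 genes. With each pool left out the Bub1b slope ran from -0.058 to 0.0074 (0.0074 without HM of 15 somites) and that of Plk1 from -1.45e-07 (without HZ of 27 somites) to 0.093.

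The difference in S-rich share along Neurog3 was -15.5 points without thinning (exact permutation p = 0.0625). Along Gcg it was -36.4 points at 14 of 20 genes, -32.5 without thinning and -31.2 at 50000 reads (exact permutation p = 0.0312 each, the smallest 6 pools can give). The G2/M-rich difference along Gcg ran from -37.7 to -23.1 points with each pool left out, where the exact permutation test cannot go below 0.0625. Depth limits the calls per cell: the S-rich call changes most with its limit, and the 117 cells under 100000 reads carry no call.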
